A study of Rattus norvegicus with 19 samples.

Results

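Liver gene expression was ordered by the share of dietary energy that came from carbohydrate, over all 19 arrays of the series (19 of 19 samples). The rats were adult male Wistar rats, housed singly with the light on in the evening, given their diet for 4 months from 8 weeks of age and killed by decapitation in the fed state early in the morning. The 7 control rats ate a diet with 70% of its energy from carbohydrate, 10% from fat and 20% from protein. The 6 high protein rats ate 45% carbohydrate, 10% fat and 45% protein, the protein being mainly casein, and the 6 high fat rats ate 20% carbohydrate, 60% fat and 20% protein. Carbohydrate therefore fell in 2 equal steps of 25 points, but protein replaced it in the first step and, relative to the control diet, fat replaced it at the end of the second, so that carbohydrate share and its replacement cannot be told apart by these diets. On each array a single rat's liver RNA (Cy5) was hybridised with a pool of liver RNA mixed in equal amounts (Cy3), and a level is given as the log2 ratio of rat to pool, so that 0 is the level of the pool and 1 is a doubling. The question was which genes moved by an ordered step, with the high protein rats between the other diets, and which moved in one diet alone.

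Dietary carbohydrate reaches the liver as glucose and fructose, which raise insulin and activate the transcription factors ChREBP (gene Mlxipl) and SREBP-1c (gene Srebf1). Together they drive genes of glycolysis and fatty acid synthesis. When less carbohydrate is eaten, the liver burns more fatty acids and makes more glucose from amino acids, and surplus amino nitrogen leaves as urea. The liver also turns cholesterol into bile acids, either by the classical route, begun by Cyp7a1 and steered by Cyp8b1, or by the alternative route, in which Cyp7b1 hydroxylates oxysterols.

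The linear trend was called for 422 of 22090 features (1.91%), at a Benjamini-Hochberg adjusted p under 0.05 in limma. A feature is a named gene or a probe without a gene name. Of these, 233 (1.05%) rose and 189 (0.856%) fell as carbohydrate fell, and 271 had a gene name. The share that rose, 55.2% here, depended on the processing and lay on either side of an even split. It was 70.8% in the authors' series matrix values, 47.9% with median centring in place of loess, 48.1% with array quality weights and 45.1% without control rat 6. Between 70% and 20% carbohydrate, 59 of the 422 differed by more than 2-fold. All 422 were also called between the high fat and control rats, a comparison with 802 calls in all (3.63%). The slope rests almost wholly on those 2 diets, so this overlap is largely built in. The count depends on single rats and was 249 without control rat 1, 195 without high fat rat 2, 255 without high fat rat 3, 224 without high fat rat 4 and 209 without high fat rat 5. With the slide as a fixed term, 132 trends were called, and only slide 1 held both high protein and high fat rats.

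An ordered step was tested directly by asking that both steps go the same way and taking the larger of their p-values. No feature passed this test after adjustment over all features (0%), and the smallest adjusted p was 1. The same test gave 39 features at an unadjusted p under 0.05 (0.177%), with a smallest unadjusted p of 0.000492, that of Cyp7b1 in limma. All the results below on genes with both steps therefore rest on step p-values that were not adjusted. The first step (high protein minus control) and the second (high fat minus high protein) share the high protein rats, so a low or high high protein mean moves them in opposite directions.

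In most called trends the high protein mean lay nearer to the control mean than to the high fat mean. The high protein mean lay between the other means in 352 of the 422 (83.4%, against 30.9% of all features). The trend call itself favours that position, because a high protein mean off the line adds to the residual. This share is therefore a description and not a separate sign of ordering. It lay beyond the control mean in 66 and beyond the high fat mean in 4. The position of the high protein mean, which is 0 at the control mean and 1 at the high fat mean, had a median of 0.23 over the 422, where a straight line would give the midpoint. In 154 of them the position lay between 0 and 0.25, in 180 between 0.25 and 0.75 and in 18 between 0.75 and 1. The first step had an unadjusted p under 0.05 in the direction of the trend in 112 of the 422 and the second step in 343. A departure of the high protein mean from that midpoint was called for 62 of the 422 and had an unadjusted p under 0.05 in 164, so that for most the departure was not resolved. It was called for 869 of all features (3.93%), or 545 without high protein rat 1, 503 without high protein rat 2 and 145 with the slide as a fixed term.

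Of 4 simple shapes, the one with the smallest residual was assigned to each of the 1447 features with any diet difference (F test, 6.55%), a count that was 500 with the slide as a fixed term. This assignment is a description without a test. The high fat rats stood apart in 773 (53.4%), the high protein rats in 425 (29.4%) and the control rats in 94 (6.50%). A line on carbohydrate was the closest shape for 155 (10.7%), below its share of 15.1% over all 22090 features. That gap depended on the processing. The shares were 11.6% and 11.8% with the slide as a fixed term, and 12.6% and 13.4% with the series matrix values. Of those 155 features, 94 had a rising line and 61 a falling one as carbohydrate fell, and 103 features were closest to a line without high fat rat 2.

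**Figure D1:**
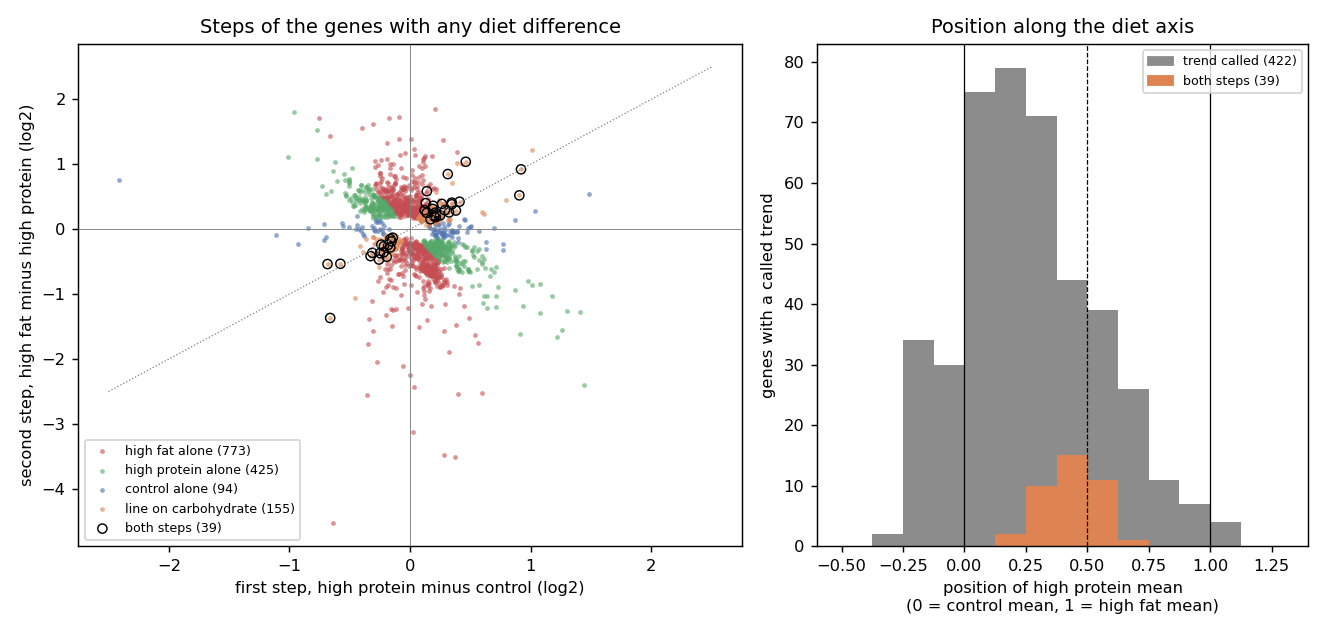
Each point of the left panel is 1 of the 1447 features with any diet difference, with the first step (high protein minus control, log2) on the x axis and the second step (high fat minus high protein, log2) on the y axis, coloured by closest shape, and circles mark the 39 features with both steps. The right panel counts the 422 features with a called trend by the position of the high protein mean between the control mean (0) and the high fat mean (1), with the 39 in orange. Called trends gather near the control end, with a median of 0.23, and the 39 lie between 0.19 and 0.63.

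In 39 features (0.177%) the trend was called and both steps had an unadjusted p under 0.05 in its direction, 23 rising (0.104%) and 16 falling (0.0724%) as carbohydrate fell. They include 29 named genes, 16 rising and 13 falling. The position of their high protein mean ran from 0.19 to 0.63, with a median of 0.45, a range that the choice itself narrows. In 2 of the 39, Phkg1 and Trim47, Cy5 was not well above background on any array of at least 1 diet, so their values there are bounds and no trend is given for them, which leaves 37 features and 27 named genes. A departure from the midpoint had an unadjusted p under 0.05 in Pold4 and in Phkg1. Control and high fat rats did not overlap in 31 of the 39, against 1.98% of all features, and those 2 diets also enter the trend that chose them. No feature of the array had all 3 diets in order without any overlap (0%). Over all features, the second step was called in 16 of the 39 and the first step in 0, where 1547 features (7%) were called for the second step and 87 (0.394%) for the first.

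Cyp7b1, the oxysterol 7-alpha-hydroxylase, had the steepest trend of the 10 rising named genes with the smallest step p-values, and its probe lies at chr2:103104072-103104131 (rn4, minus strand). Its log2 ratio ran from -1.43 to -0.41 with a median of -1.27 in the control rats, from -0.67 to 0.61 with a median of -0.25 in the high protein rats and from 0.32 to 1.30 with a median of 0.69 in the high fat rats. Each diet overlapped its neighbour, and the control and high fat rats did not overlap. The trend was 0.92 ± 0.10 (SE, n = 19) per step of 25 points (limma, adjusted p = 0.000208). The first step was 0.92 ± 0.21 and the second 0.92 ± 0.22, with adjusted p-values of 0.0659 and 0.0141 in limma, and the high protein mean departed from the midpoint by -0.00 (95% interval -0.40 to 0.39).

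Apoa4, an apolipoprotein of chylomicrons and high density lipoprotein made by gut and, in rodents, by liver, ran the other way. Its probe lies at chr8:49233335-49233394 (rn4, plus strand). Apoa4 ran from 0.57 to 1.14 (median 0.88) in the control rats, from -0.00 to 0.79 (median 0.22) in the high protein rats and from -0.94 to 0.14 (median -0.06) in the high fat rats. Every control rat lay above every high fat rat, while the high protein rats overlapped both. The trend was -0.56 ± 0.08 per step (limma, adjusted p = 0.00104), made of steps of -0.58 ± 0.16 and -0.53 ± 0.17.

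Enzymes of sugar and glycogen handling were among the genes with both steps. Sord, sorbitol dehydrogenase, which makes fructose from sorbitol, ran from -0.46 to -0.05 (median -0.41) in control, from -0.26 to 0.09 (median -0.17) in high protein and from -0.01 to 0.30 (median 0.10) in high fat rats. Its trend was 0.23 ± 0.04 per step (limma, adjusted p = 0.00193), with steps of 0.21 ± 0.07 and 0.25 ± 0.08. Gbe1, the glycogen branching enzyme, ran from 0.05 to 0.53 (median 0.19) in control, from -0.27 to 0.16 (median 0.04) in high protein and from -0.52 to -0.09 (median -0.37) in high fat rats. Its trend was -0.29 ± 0.04 per step (limma, adjusted p = 0.00133), with steps of -0.22 ± 0.08 and -0.36 ± 0.09. In both genes the high protein rats overlapped both other diets and the control and high fat rats did not overlap. A dimmer probe of Gbe1 moved in the same direction by less, with steps of -0.08 and -0.11, and without high protein rat 4 the first step of Gbe1 was -0.16 with an unadjusted p of 0.0593 in limma.

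Genes with larger steps included proteins outside nutrient metabolism. Sbspon, a secreted protein with somatomedin B and thrombospondin domains, ran from -1.15 to -0.50 (median -0.95) in control, from -0.78 to 0.29 (median -0.47) in high protein and from 0.22 to 1.08 (median 0.68) in high fat rats, with steps of 0.46 ± 0.17 and 1.04 ± 0.18. Ky, a peptidase studied in muscle, ran from 0.21 to 1.68 (median 0.47), from -0.80 to 0.34 (median -0.05) and from -1.87 to -0.56 (median -1.52) in the same order, with steps of -0.66 ± 0.24 and -1.37 ± 0.25. Its Cy5 signal was above background on 18 of 19 arrays. In both genes the second step was the larger, and the interval of the departure reached 0, from -0.60 to 0.03 for Sbspon and from -0.09 to 0.80 for Ky.

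Genes of mitochondria and one phosphatase followed with smaller steps. Slc25a34, a carrier of the inner mitochondrial membrane, ran from -0.36 to -0.12 (median -0.27) in control, from -0.19 to 0.16 (median -0.09) in high protein and from 0.15 to 0.49 (median 0.30) in high fat rats, with a trend of 0.27 ± 0.03 per step (limma, adjusted p = 0.000208) and steps of 0.19 ± 0.06 and 0.36 ± 0.06. Mrrf, which recycles mitochondrial ribosomes, had steps of 0.20 ± 0.06 and 0.19 ± 0.06, and its high fat rats lay above all others. Of the 3 dimmer probes of Mrrf, 2 had a positive value in both steps and the third had a second step of -0.03. Acp3, an acid phosphatase, was at 0.19 to 0.31 in control, -0.15 to 0.27 in high protein and -0.50 to -0.20 in high fat rats, with the high fat rats below all others. Its steps were -0.19 ± 0.06 and -0.43 ± 0.07.

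The other rising genes of the 10 were Sat2, a polyamine acetyltransferase homologue (trend 0.36 ± 0.06 per step), Tcn2, the carrier of vitamin B12 in plasma (0.29 ± 0.05), Hsd17b11, a dehydrogenase found on lipid droplets (0.23 ± 0.04), Fam219b (0.20 ± 0.04) and Pold4, a subunit of DNA polymerase delta (0.26 ± 0.03). Pold4 had the high fat alone shape, with steps of 0.13 ± 0.06 and 0.40 ± 0.06. The other falling genes were the peptidase neurolysin Nln (-0.24 ± 0.03), the adhesion protein Cadm1 (-0.24 ± 0.04), the protease inhibitor kallistatin Serpina4 (-0.22 ± 0.03), the splicing factor Gpkow (-0.21 ± 0.03), the deubiquitinase Uchl3 (-0.16 ± 0.03) and the sulfonylurea receptor Abcc8 (-0.31 ± 0.05). Their adjusted trend p-values in limma lay below 0.05 in each case, the highest being 0.0149 for Fam219b. Among the remaining named genes with both steps were Kcnh1, a potassium channel (0.91 and 0.52), Bdh2, a cytosolic hydroxybutyrate dehydrogenase (0.38 and 0.29), and the DNA damage sensor Xpc (-0.33 and -0.42). The trend of these 3 genes stayed called whichever of the 19 rats was left out, but both steps held in 10 of the 19 omissions for Kcnh1, 11 for Bdh2 and 12 for Xpc. Both steps of Fam219b held in 8 of 19, those of Pold4 and Abcc8 in 14, those of Uchl3 in 15 and those of Tcn2 in 16.

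**Figure D2:**
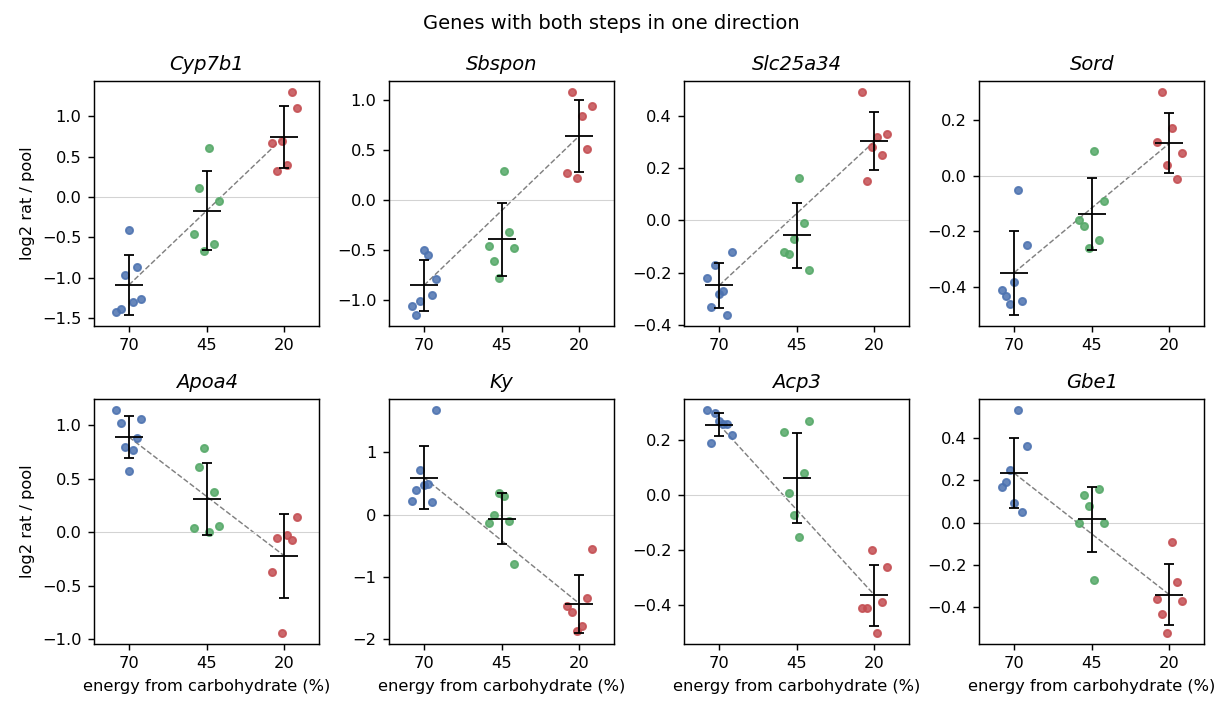
Log2 ratio of rat to pool (y axis) against energy from carbohydrate (x axis, 70, 45 and 20%) for 8 genes with both steps; each point is 1 rat, black bars give the mean ± SD of a diet (n = 7, 6 and 6) and the dashed line joins the control mean to the high fat mean. The high protein mean lies close to that line in Cyp7b1, Apoa4 and Sord and nearer to the control end in Sbspon and Ky, and high protein rats overlap control rats in all 8 genes.

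High protein rats did not contribute equally to the middle position. Of the 20 ordered genes named above (10 rising and 10 falling), high protein rat 4 had the value nearest the high fat end among the high protein rats in 13, and high protein rat 3 had the value nearest the control end in 8. Without high protein rat 4 the trend was called in 20 of the 20 and both steps held in 16. Control rat 6 stood apart as a library, with an SD of log ratios of 0.45 against 0.20 to 0.29 on the other 18 arrays. Its median over 9 lymphocyte markers was 2.57, against -1.09 to -0.57 in the other rats. Without control rat 6 both steps held in 19 of the 20. Without it the trend was called for 587 features.

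The arrays lay on 5 slides, and only slide 1 held both high protein and high fat rats. The 20 genes were chosen on these same rats for steps in 1 direction, so their directions by slide are a description and not a separate check. On slide 1, with 1 control, 2 high protein and 1 high fat rat, the first step went in the direction of the trend in 20 of the 20 ordered genes and the second in 18. High fat minus control had the direction of the trend in 20 of 20 on each of slides 1, 2 and 3, and the first step in 17 on slide 4 and 18 on slide 5. Cyp7b1 rose on slide 1 by 1.50 and then 0.60, and its first step was 1.05 on slide 4 and 0.51 on slide 5. With the slide as a fixed term, the second step of Cyp7b1 was 0.66 (limma, unadjusted p = 0.06) and that of Apoa4 -0.49 (unadjusted p = 0.0517), while both trends stayed called.

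RefSeq promoter windows, the 250 bases before the annotated start in GRCr8, were found for 23 of the 29 named genes with both steps. They are shown for 5 of these genes, because their transcripts shared the ordered pattern. The 5 encode enzymes of sugar and fat handling, an apolipoprotein and a mitochondrial carrier. The window of Scd, the fatty acid desaturase assigned the high fat alone shape, is shown as well. Capitals mark matches on either strand to the GC box GGGCGG (reverse complement CCGCCC), the CCAAT box (reverse complement ATTGG) or the nuclear receptor half-site AGGTCA (reverse complement TGACCT).
Sord, chr3:129638418-129638667, plus strand: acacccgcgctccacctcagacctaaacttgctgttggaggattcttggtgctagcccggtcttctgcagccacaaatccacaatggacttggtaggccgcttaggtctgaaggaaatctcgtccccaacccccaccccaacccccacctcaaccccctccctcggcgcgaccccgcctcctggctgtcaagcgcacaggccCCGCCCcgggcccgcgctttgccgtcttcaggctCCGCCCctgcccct
Slc25a34, chr5:159219893-159220142, minus strand: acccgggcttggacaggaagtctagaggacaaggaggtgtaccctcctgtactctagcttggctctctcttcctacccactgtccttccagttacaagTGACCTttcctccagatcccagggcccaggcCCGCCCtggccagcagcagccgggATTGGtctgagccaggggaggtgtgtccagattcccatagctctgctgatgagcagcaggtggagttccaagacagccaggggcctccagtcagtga
Apoa4, chr8:55435529-55435778, plus strand: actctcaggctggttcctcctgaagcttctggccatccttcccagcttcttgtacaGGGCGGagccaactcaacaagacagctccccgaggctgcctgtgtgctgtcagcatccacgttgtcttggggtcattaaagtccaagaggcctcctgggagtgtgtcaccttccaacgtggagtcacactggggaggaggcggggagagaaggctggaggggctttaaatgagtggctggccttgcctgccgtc
Gbe1, chr11:22181026-22181275, plus strand: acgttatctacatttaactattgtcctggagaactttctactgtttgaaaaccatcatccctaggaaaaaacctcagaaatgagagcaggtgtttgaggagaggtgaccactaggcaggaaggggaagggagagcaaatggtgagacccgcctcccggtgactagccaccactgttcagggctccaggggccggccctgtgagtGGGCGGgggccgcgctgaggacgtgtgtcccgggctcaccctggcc
Hadhb, chr6:31907501-31907750, minus strand: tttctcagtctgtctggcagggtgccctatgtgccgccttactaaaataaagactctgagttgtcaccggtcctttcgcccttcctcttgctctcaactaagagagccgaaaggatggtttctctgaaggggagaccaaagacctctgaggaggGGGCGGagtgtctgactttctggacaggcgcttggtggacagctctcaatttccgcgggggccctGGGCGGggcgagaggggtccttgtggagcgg
Scd, chr1:253231732-253231981, minus strand: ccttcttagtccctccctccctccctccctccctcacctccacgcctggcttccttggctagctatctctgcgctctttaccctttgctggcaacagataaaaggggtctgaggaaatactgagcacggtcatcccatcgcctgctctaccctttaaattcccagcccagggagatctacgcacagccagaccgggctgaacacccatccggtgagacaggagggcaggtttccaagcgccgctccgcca
The windows of Sord and Hadhb held 2 GC boxes each, those of Apoa4 and Gbe1 held 1, that of Slc25a34 held a half-site, a CCAAT box and a GC box, and that of Scd held none of the motifs searched. No matches overlapped in these windows. The search also covered the E-box CACGTG, the HNF4 site CAAAGTCCA, the sterol response element TCACNCCAC, the C/EBP site TTGCNNAA, the HNF1 half-site GTTAAT and the TATA box TATAAA, on both strands. A GC box was present in 17 of the 23 windows (73.9%), in 190 of 340 windows of named genes with the high fat alone shape (55.9%) and in 30.5% of 33469 RefSeq promoters, many of which belong to genes not measured here. The half-site was in 2 of 23 (8.7%) against 14.1% of all promoters, the CCAAT box in 6 (26.1%) against 34%, the E-box in 1 (4.35%) against 5.59% and the TATA box in 2 (8.7%) against 12.9%. The C/EBP site was in 1 (4.35%) against 9.22%, the HNF1 half-site in 2 (8.7%) against 6.45%, and the HNF4 site and sterol response element in 0 against 0.338% and 0.974%. These matches are letters in a window and not measured binding.

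Among bile acid genes, 6 of 25 measured had a called rising trend (1.05% of all features), by different shapes. The list covers bile acid synthesis and the transport of sterols, and 0 of its genes had a called falling trend (0.856% of all features). Cyp7b1 and Cyp8b1 had both steps, which held in 19 of 19 omissions for Cyp7b1 and in 4 of 19 for Cyp8b1. Among the 10 with any diet difference, 3 followed a line, 6 the high fat diet alone and 1 the high protein diet alone. The median over the list had a first step of -0.01 and a second of 0.29, against -0.01 and 0.00 over all features. Without control rat 6 the trend was called for 5 of the list.

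Cyp7a1, the rate-limiting enzyme of the classical route, ran from -2.52 to 0.21 (median -1.97) in control, from -1.74 to 1.43 (median -0.55) in high protein and from -0.87 to 1.51 (median 1.03) in high fat rats. All 3 diets overlapped. Its trend was 1.12 ± 0.26 per step (limma, adjusted p = 0.0261), with steps of 1.01 ± 0.52 and 1.23 ± 0.54, and the call was lost without control rat 1 or 2 or high fat rat 2, 4, 5 or 6 (limma, adjusted p from 0.0552 to 0.0727). Cyp8b1, which sets the share of cholic acid, ran from -0.98 to -0.11 (median -0.69), from -0.58 to 0.23 (median -0.25) and from -0.65 to 0.57 (median 0.35) in the same order. Its trend was 0.42 ± 0.09 per step (limma, adjusted p = 0.0211), with steps of 0.41 ± 0.19 and 0.42 ± 0.20, and the call was lost without control rat 1 or high fat rat 1, 2 or 5 (0.0507 to 0.0589). The high protein mean of these 3 hydroxylases was at positions of 0.50 for Cyp7b1, 0.45 for Cyp7a1 and 0.49 for Cyp8b1, and the departure from the midpoint had a 95% interval of -1.08 to 0.86 for Cyp7a1 and -0.36 to 0.34 for Cyp8b1.

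Abcg5 and Slc27a5 of the same list moved in the high fat rats. Abcg5, part of the exporter of sterols into bile, ran from -1.90 to -0.24 (median -0.89) in control, from -1.50 to 0.34 (median -0.88) in high protein and from 0.69 to 1.41 (median 1.08) in high fat rats. The first step was 0.21 ± 0.28 and the second 1.85 ± 0.29, and every high fat rat lay above every other rat. Slc27a5, which activates bile acids for conjugation, had steps of 0.05 ± 0.13 and 0.61 ± 0.14, again with the high fat rats above all others. The departure from the midpoint had an interval of -1.35 to -0.29 for Abcg5 and -0.52 to -0.04 for Slc27a5.

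**Figure D3:**
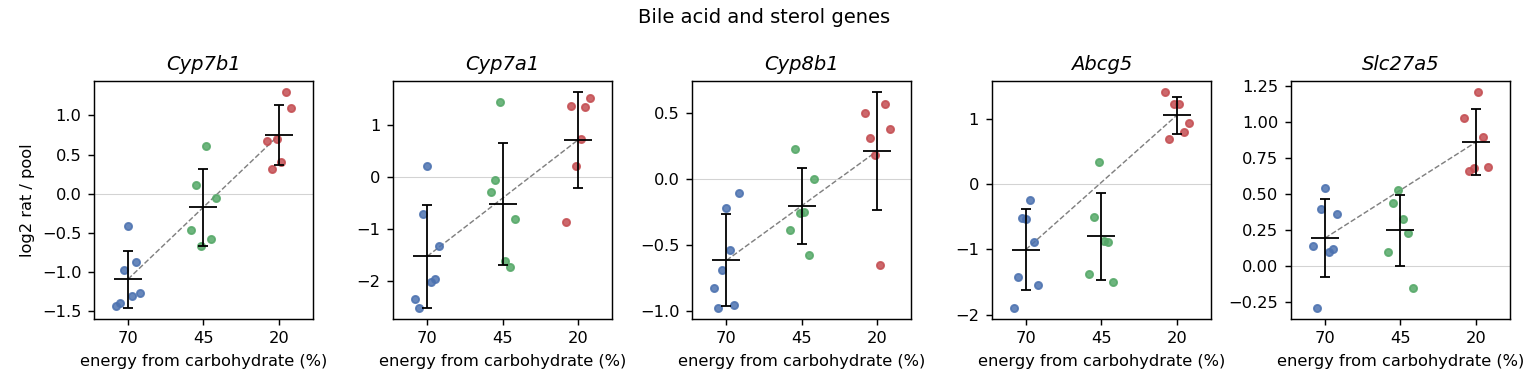
Log2 ratio of rat to pool (y axis) for 5 genes of bile acid and sterol handling against energy from carbohydrate (x axis, 70, 45 and 20%), with 1 point per rat, the mean ± SD of each diet in black (n = 7, 6 and 6) and a dashed line from the control to the high fat mean. Cyp7b1, Cyp7a1 and Cyp8b1 have high protein means near the line, and Abcg5 and Slc27a5 have high protein means near the control level.

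Glycogen metabolism held few called genes, and both followed a line. Of 17 measured genes the trend was called for 0 rising (1.05% of all features) and 2 falling (0.856%), Gbe1 and Pygl. The medians over the list were 0.02 and -0.06. Pygl, liver glycogen phosphorylase, ran from 0.06 to 0.40 (median 0.29) in control, from -0.10 to 0.30 (median 0.11) in high protein and from -0.34 to -0.00 (median -0.19) in high fat rats. Its trend was -0.21 ± 0.04 per step (limma, adjusted p = 0.00378), but its first step of -0.15 ± 0.07 had an unadjusted p of 0.0574. In Pygl, as in Gbe1, control and high fat rats did not overlap.

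In mitochondrial fatty acid oxidation, 6 of 27 measured genes had a called rising trend (4 without control rat 6) and 0 a falling one. Over all features the shares were 1.05% and 0.856%. The second step was called as rising in 11 of the 27 and the first step in 0, against 747 and 59 of all 22090 features. Hadhb, the beta subunit of the trifunctional protein that carries out the last reactions of long chain oxidation, ran from -0.40 to 0.02 (median -0.21) in control, from -0.30 to 0.21 (median 0.01) in high protein and from 0.16 to 0.53 (median 0.25) in high fat rats, with steps of 0.19 ± 0.08 and 0.31 ± 0.09, and both held in 12 of the 19 omissions. Hadha, its alpha subunit, had steps of 0.12 ± 0.06 and 0.28 ± 0.06, with an unadjusted p of 0.0573 for the first in limma. A dimmer probe of Hadha had steps of -0.04 and 0.19 and another 0.13 and 0.19, so its first step depended on the probe. The genes are neighbours that are read in opposite directions, with annotated starts 301 bases apart in GRCr8, and their promoter windows share 200 bases. Among the 10 genes of the list with any diet difference, 2 followed a line, these same subunits, and 8 followed the high fat diet alone, such as Eci1 with steps of 0.10 and 0.69. The list medians were 0.02 and 0.21.

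Of 34 measured phase I enzymes of drug and steroid metabolism, 10 had a called rising trend (1.05% of all features) and 0 a falling one (0.856%). Their medians were 0.11 in the first step and 0.10 in the second, and the high protein mean lay between the others in 21 of the 34 (61.8%, against 30.9% of all features). Cyp2e1, which oxidises ethanol and acetone, ran from -1.48 to -0.16 (median -0.52) in control, from -0.77 to 0.10 (median -0.60) in high protein and from 0.67 to 1.34 (median 0.86) in high fat rats, with steps of 0.27 ± 0.20 and 1.38 ± 0.21. Its high fat rats lay above all others. Cyp1a2, which oxidises caffeine, ran from -1.52 to -0.05 (median -0.86), from -0.68 to 0.21 (median -0.08) and from 0.12 to 0.74 (median 0.27) in the same order. Its first step was 0.79 ± 0.21 and its second 0.45 ± 0.22, the latter with an unadjusted p of 0.0553 in limma. The flavin monooxygenase Fmo5 moved mostly in the first step, with 1.03 ± 0.25 and then 0.28 ± 0.26. The near equal medians of the list do not stand for a shared line. Among the 12 with any diet difference, 2 had the line shape, 9 the high fat alone shape and 1 the control alone shape. The list median taken within each rat averaged -0.215 in control, -0.11 in high protein and 0.17 in high fat rats, with the larger change in the second step.

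In fatty acid synthesis and glycolysis, pathways that carbohydrate is known to drive, the called genes had the high fat alone shape. Of 24 measured genes of fatty acid synthesis, 9 had a called falling trend (0.856% of all features) and 0 a rising one (1.05%). Without control rat 6 the falling trend was called for 12 of the list. All 15 genes of the list with any diet difference had the high fat alone shape. Both steps were found in 0 of them, as over nearly all features (0.177% had both). The list medians were 0.02 in the first step and -0.59 in the second. Scd, the stearoyl-CoA desaturase, ran from -0.12 to 1.48 (median 0.82) in control, from -0.75 to 0.94 (median 0.07) in high protein and from -5.88 to -3.03 (median -4.53) in high fat rats. The first step was -0.64 ± 0.40 (limma, unadjusted p = 0.125) and the second -4.53 ± 0.41, and the high protein mean lay 1.95 above the midpoint (95% interval 1.20 to 2.69). Fasn, the fatty acid synthase, had steps of 0.28 ± 0.49 and -3.47 ± 0.51, and its high protein mean lay 1.88 above the midpoint (0.96 to 2.80).

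Glycolysis and fructose entry had the same pattern. Of 28 measured genes, 7 were called as falling (0.856% of all features) and 0 as rising (1.05%). All 10 with any diet difference had the high fat alone shape. Pklr, liver pyruvate kinase, ran from -0.39 to 0.81 (median 0.17) in control, from -0.31 to 0.47 (median -0.04) in high protein and from -1.70 to -0.90 (median -1.26) in high fat rats. Its first step was -0.14 ± 0.18 and its second -1.25 ± 0.18. Mlxipl, which encodes ChREBP, had a called trend of -0.35 ± 0.08 per step with steps of -0.16 and -0.55, and the call was lost without control rat 1 (limma, adjusted p = 0.0522) or high fat rat 2 (0.0572), 4 (0.0534) or 6 (0.0503). Srebf1 had no called trend (limma, adjusted p = 0.0959), with steps of 0.16 and -0.95. Neither had the gluconeogenic genes Pck1 (0.69) and G6pc1 (0.0862), in the same test. The steps were -0.13 and 0.36 for Pck1. Those of G6pc1 were -0.44 and -0.51, and its dimmer probe had -0.20 and -0.73. A missing call does not show that a gene was unmoved.

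In amino acid breakdown and the urea cycle, the genes with a diet difference mostly had the high protein alone shape. In amino acid catabolism 2 of 58 measured genes had a called rising trend (1.05% of all features) and 0 a falling one (0.856%). Of the 18 with any diet difference, 12 had the high protein alone shape. The list medians were 0.19 and then -0.10. The first step was called as rising in 9 of the 58, against 59 of all 22090 features. The urea cycle had 0 called trends among 9 measured genes (1.91% of all features), 3 with the high protein alone shape, and medians of 0.29 and then -0.23. Asl, argininosuccinate lyase, ran from -1.07 to -0.27 (median -0.37) in control, from 0.11 to 0.73 (median 0.49) in high protein and from -0.61 to -0.03 (median -0.32) in high fat rats. The high protein rats lay above all others, with steps of 0.97 ± 0.13 and -0.80 ± 0.14. The glutathione transferase Gstm4 and the histidine ammonia-lyase Hal, the latter breaking down histidine, had this shape too, with steps of 1.01 ± 0.12 and -0.87 ± 0.12 for Gstm4 and of 0.57 ± 0.11 and -0.86 ± 0.11 for Hal. High protein and control rats did not overlap in 0.774% of all features, and high protein and high fat rats in 4.98%.

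A change shared by both experimental diets could also give a called trend, with the first step alone. Gstm7, another glutathione transferase, ran from -0.69 to -0.03 (median -0.39) in control, from -0.02 to 0.49 (median 0.33) in high protein and from -0.08 to 0.60 (median 0.35) in high fat rats. Its trend of 0.36 ± 0.07 per step was called (limma, adjusted p = 0.011) with a first step of 0.69 ± 0.12 and a second of 0.02 ± 0.12. Gjb2, the gap junction protein connexin 26, had the reverse, with a called trend of -0.26 ± 0.06 and steps of -0.56 ± 0.09 and 0.05 ± 0.09. Slc16a10, a carrier of aromatic amino acids and thyroid hormone, had steps of 0.61 ± 0.15 and 0.23 ± 0.16 and was assigned the line. Such genes made up 28 of the 422 called trends, the line 165, the high fat alone shape 229 and the high protein alone shape 0, as follows from the trend's construction.

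**Figure D4:**
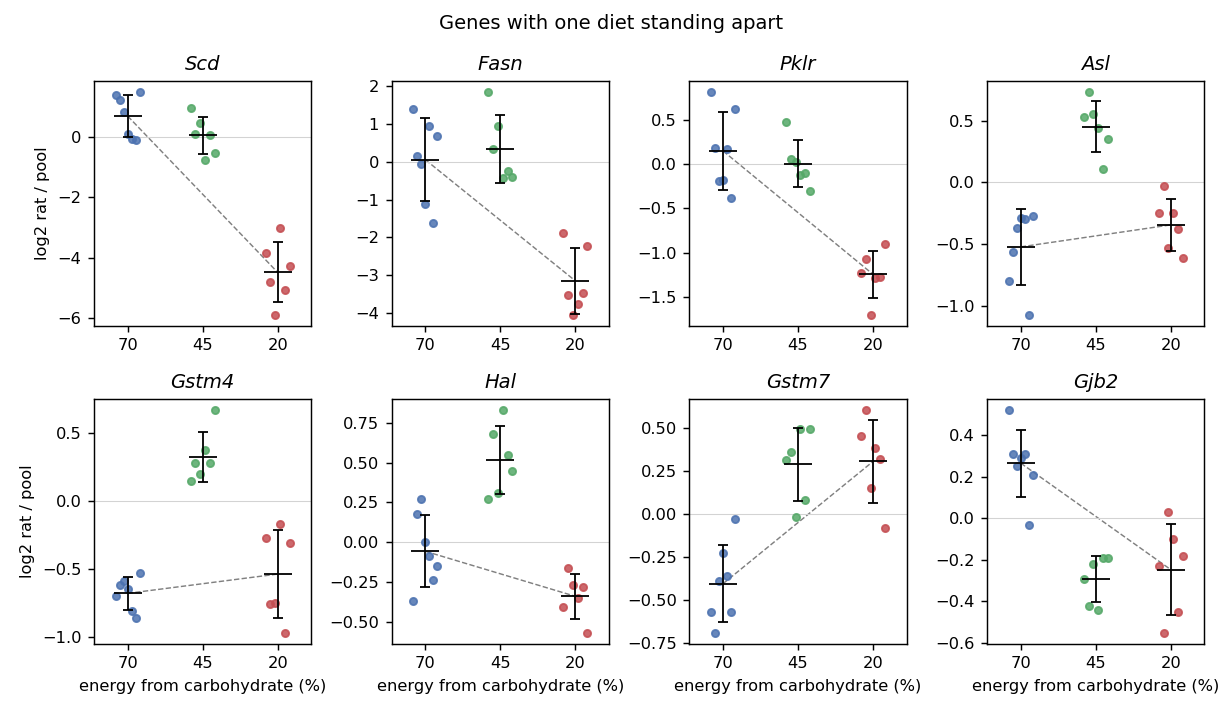
Log2 ratio of rat to pool (y axis) against energy from carbohydrate (x axis, 70, 45 and 20%) for 8 genes in which 1 diet stood apart; points are rats, black bars the mean ± SD (n = 7, 6 and 6) and the dashed line joins the control mean to the high fat mean. High fat rats lie apart in Scd, Fasn and Pklr, high protein rats in Asl, Gstm4 and Hal, and control rats sit to one side in Gstm7 and Gjb2, where each overlaps high fat rats.

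In the remaining pathway lists the counts of called trends are to be read against 1.91% of all features (1.05% rising and 0.856% falling). Cholesterol synthesis and uptake had 0 called trends and 0 genes with any diet difference among 25 measured, ketone body synthesis had 0 called trends among 8 and oxidative phosphorylation 0 among 41, trend counts close to that background. Other tests did call genes there. Ketone body synthesis had 2 diet differences (6.55% of all features), of the high fat alone shape, and 3 rising second steps (747 of all 22090). Oxidative phosphorylation had 4 diet differences, of the high protein alone shape, and 5 departures (3.93% of all features). Cholesterol synthesis had 3 falling second steps (800 of all 22090). Peroxisomal and omega oxidation targets of PPAR alpha had 3 called rising and 1 falling among 31, with 5 of 7 diet differences in the high fat rats alone. Gluconeogenesis and the glycerol shuttle had 1 rising, Fbp2 (0.32 ± 0.09 and 0.14 ± 0.10), and 2 falling among 18. Conjugation and glutathione use had 2 rising and 0 falling among 40.

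**Figure D5:**
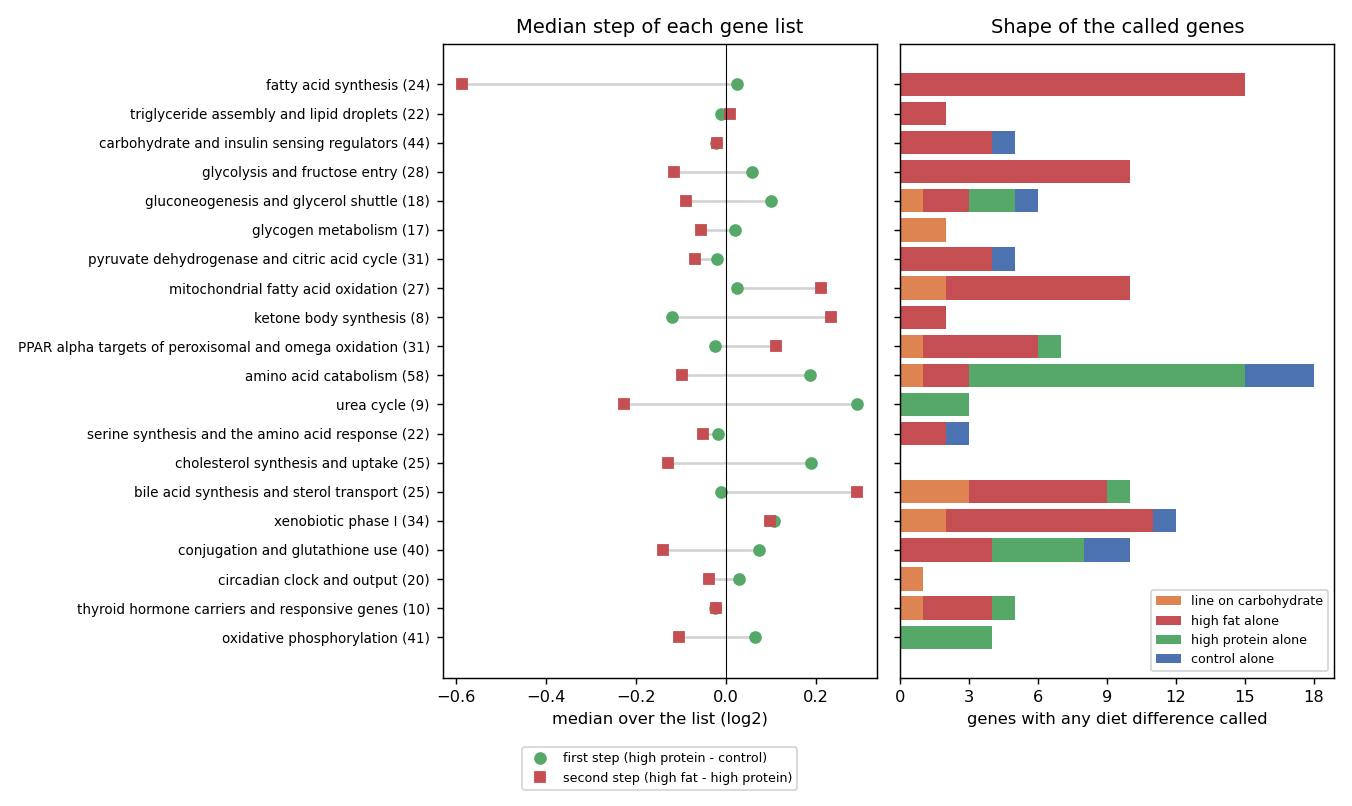
The left panel gives, for each pathway list with its number of measured genes, the median first step (green circles, high protein minus control) and second step (red squares, high fat minus high protein) in log2 units on the x axis; the right panel counts the genes of each list with any diet difference by closest shape. Fatty acid synthesis has its median of -0.59 in the second step, the urea cycle has median steps of opposite sign (0.29 and -0.23), and phase I enzymes have median steps of like size (0.11 and 0.10) from members of unlike shapes.

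Markers of cell types bear on all these values, since in whole tissue fewer cells of a type and less RNA per cell cannot be told apart. Hepatocyte markers had 0 called trends among 12 measured, and 3 (Ttr, Cps1 and Serpina1) had the high protein alone shape. The shape of Ttr depended on the probe. Its steps were 0.19 and -0.33, and a dimmer probe had -0.09 and 0.20. Kupffer cell markers had 0 called trends among 12, lymphocyte markers 0 among 9, endothelial markers 0 among 10, cholangiocyte markers 0 among 7, erythrocyte markers 0 among 6, neutrophil markers 0 among 2, and adipocyte and pancreatic acinar markers 0 among 4 each. The trend was called for 1.91% of all features, so 0 in such short lists does not show that a cell type was unchanged. The median over the erythrocyte markers ran from -1.07 to 0.94 in control, from -0.31 to 0.24 in high protein and from -0.54 to 0.46 in high fat rats. The high fat minus control difference had a median of 0.41 over these 6 markers and of 0.31 over the 2 neutrophil markers, against -0.01 over all features, and the diets overlapped in the erythrocyte values. Stellate cell markers had 3 called rising among 17 (1.05% of all features), Rgs5 (0.45 ± 0.08 and 0.14 ± 0.09), Hand2 (0.14 and 0.25) and Reln (0.17 and 0.35). The medians over the 17 were 0.09 in the first step and 0.05 in the second. A dimmer probe of Hand2 had smaller steps of 0.03 and 0.05, and one of Reln had 0.03 and 0.48. The part of stellate cells and blood cells in the genes that rose as carbohydrate fell was not tested.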

How the data were processed

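Liver RNA of 19 rats on 3 diets was measured on Agilent 2-colour arrays, with no dye swap. The scanner output that the authors deposited holds, per the file headers, spot intensities (mean signals and median local backgrounds of each dye, in Agilent Feature Extraction 10.5.1.1 per the submitters' processing notes). The authors also deposited a series matrix on a log2 scale with every column median at 8.205; its steps are not given in the sources used here, and it served as an alternative.

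The main values were computed from the intensities in R 4.3.3 with limma 3.58.1. Outlier spots were dropped, as were 40 spots on 5 arrays with a local background over 50 units brighter than the spot. Normexp background correction (offset 50) and loess within each array, with control spots at weight 0, gave log2 ratios of rat to pool. Probes needed a Cy5 signal above background in 6 or more of the 19 arrays (25288 passed), and the brightest kept probe stood for its gene, which left 22090 features, 11442 of them named. Names came mostly from RefSeq tables, and 20272 of 41012 probes had none. In 226 features 230 ratios were missing, and those arrays were left out of that feature's fit. The Cy5 signal was above background for 54.2% to 67.5% of probes per array, and the number of arrays limits the precision.

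The trend was a limma fit on carbohydrate percent, given per step of 25 points less carbohydrate, and the steps, the departure from the midpoint and the F test came from a fit of 3 groups. Tests were two-sided and adjusted by Benjamini-Hochberg over all features. The scripts were tested on simulated data. Named genes were the 10 rising and 10 falling genes with called trends and the smallest larger step p, the 5 clearest genes of each other shape, a short list of known carbohydrate and amino acid genes, and up to 4 members per list by trend p. Kcnh1, Bdh2, Xpc, Trim47, the hepatocyte markers and the stellate markers Hand2 and Reln were named after their values were seen. The members, gene lists and rules were chosen with earlier results of these data known. The labels give separate animals but do not tie rats of different diets together, and like-numbered rats of different diets did not deviate together (mean correlation -0.00987 over 18 pairs, against 0.00119 over 102 others), so no pairing was used. Some genes of these lists are not reported here. Alternatives covered background, normalisation, filter, slide, array weights, probe choice and leaving out each rat.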

Additional observations from a re-analysis of the deposited data

Results flagged for a closer look

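In 165 groups of gene values and 87 groups of list medians, a rat was picked out where its gap to its nearest neighbour was a large part of the group's range, by Dixon's 95% criterion. Chance picks about 1 in 20 such groups, and 10 groups of gene values and 4 of list medians were picked. Pold4 reached 0.306 in high protein rat 4, with the next rat at 0.121. Nln was -0.255 in high protein rat 6, with the next at -0.14, and -0.252 in high fat rat 6, with the next at -0.354. Ky was 1.68 in control rat 7, with the next at 0.707. Fabp5, a fatty acid binding protein, was 1.74 in high protein rat 1 against 0.596, Pgam1-ps10 was -0.0978 in the same rat against 0.0855, and Pck1 was -1.33 in it against -0.458. Mlxipl was -0.565 in high protein rat 4 against 0.0388, and Pdk4 was -0.538 in high protein rat 3 against 0.191. Txnip was 2.5 in control rat 6 against -0.168.

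Among marker lists, the lymphocyte median was 2.57 in control rat 6 against -0.572 in the next control rat. The stellate median was 0.317 in control rat 1 against -0.066 and 0.431 in high fat rat 6 against 0.079, and the cholangiocyte median was 0.302 in high protein rat 2 against 0.039. All values are log2 ratios of rat to pool.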

How the results depend on the processing

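The trend was called for 422 features in the main analysis. It was called for 266 with Cy5 alone, 132 with the slide as a fixed term, 802 with a linear contrast of the 3-group fit, 1186 with fat percent as the only predictor and 112 at an adjusted p under 0.01. The linear contrast gives the high protein mean no weight, so its 802 calls are those of high fat minus control. With the slide as a fixed term, both steps were found in 22 features (15 shared with the main 39), departure in 145, any diet difference in 500 and the line shape in 58. Array quality weights gave 1788 departures, 2507 diet differences and 241 lines, and Cy5 alone gave 95 lines. Leaving out 1 rat gave 195 to 587 trends (lowest without high fat rat 2, highest without control rat 6), 29 to 50 features with both steps, 503 to 1164 departures, 1095 to 1863 diet differences and 103 to 180 lines.

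With the replicate block, the trend was called for 226 features and both steps were found in 44; like-numbered rats are not known to be related. The adjusted test of an ordered step gave 0 features in the main analysis, in 13 other settings and in each of the 19 omissions, and 39 under the looser rule. A line was the closest shape for 8.72% to 12.6% of diet differences over these settings and omissions, and for 11.8% to 16% of all features.

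Of the 20 ordered genes, the trend was called in 20 in each of the 19 omissions, and both steps held in 16 to 20. Both steps held in 9 with the series matrix values, 10 with Cy5 alone, 11 with the slide as a fixed term, 12 with normexp fitted on every spot and 12 with the processed signals, and in 15 to 20 in the other settings that tested all 20. The cause was not tested. Cyp7b1 kept both steps in 12 of 13 settings.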

Other observations

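The same limma fit called 1186 features on fat percent, 422 on carbohydrate percent and 343 on protein percent. Fat percent sets the high fat rats against all others, while the carbohydrate slope rests almost wholly on the control and high fat rats. The fits use the rats unequally, so the counts do not show which share the features follow more closely. Of the 802 features called between the high fat and control rats, 380 had no called carbohydrate trend, and in 275 of these the high protein mean lay outside the range of the other means.

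Several genes known for their place in carbohydrate metabolism had no called trend. Txnip, a thioredoxin-binding protein induced by glucose, had an adjusted p of 0.733 in limma, and Pdk4, which blocks pyruvate entry into the citric acid cycle, one of 0.868. Cpt1a, the entry gate of long chain fatty acids into mitochondria, had steps of -0.24 and 1.07 and an adjusted trend p of 0.11 in limma.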
